A study of Mus musculus with 227 samples.

Results

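The genes described are the nuclear-encoded genes of oxidative phosphorylation, 92 of the 24388 genes measured in single cells from the long bones of newborn mice. They were chosen by name alone: row names that begin with Ndufa, Ndufb, Ndufc, Ndufs, Ndufv, Uqcr, Atp5 or Cox followed by a digit from 4 to 8, with Sdha, Sdhb, Sdhc and Sdhd, and without names ending in -ps. Of these, 38 are named for complex I, 4 for complex II, 8 for complex III, 18 for complex IV and 15 for complex V. The rule also took in 7 complex I assembly factors (Ndufaf genes) and 2 genes, Atp5s and Atp5sl, that carry the Atp5 name without being counted here as subunits. The cells came from BL6 mice at postnatal day 3 and were sorted into 4 populations, which shared the surface phenotype CD45-, Ter-119- and AlphaV+. Cells labelled mSSC (mouse skeletal stem cell) were gated as Thy-, 6C3-, CD105- and CD200+. The label CSP was given to Thy-, 6C3- and CD105+ cells. THY+ cells were Thy+, 6C3- and CD105+, and 6C3+ cells were Thy-, 6C3+ and CD105+. The gates of mSSC, CSP and THY+ name Tie2- as well, and that of 6C3+ does not. The study set these skeletal stem and progenitor populations side by side. Per the labels' protocols, cells were sorted a second time and imaged after capture, and only single live cells were kept.

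Oxidative phosphorylation passes electrons from NADH and succinate through the complexes of the inner mitochondrial membrane to oxygen, and the proton gradient built on the way drives ATP synthase. Complex I oxidises NADH, complex II oxidises succinate and is also an enzyme of the TCA cycle, complex III hands electrons to cytochrome c, complex IV (cytochrome c oxidase) reduces oxygen, and complex V makes ATP. All complexes but complex II also hold subunits that mitochondrial DNA encodes; the table holds 0 such genes, so only the nuclear part can be described. Cartilage cells, which live with little oxygen, are known for a strong use of glycolysis, and bone-forming and perivascular cells for a varying share of both routes. Several subunits of complexes I and IV have a second form known from muscle, lung, testis or hypoxic cells.

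Promoters are shown for 4 genes, because the subunits of these complexes are known to share control by NRF1, ETS-family factors and YY1. Each is 300 bases, 250 before and 50 after the gene's start, from RefSeq on GRCm38.p6, written 5′ to 3′ on the gene's own strand, which is the minus strand for all 4. Capitals mark the motifs found on either strand: CGCATGCG for NRF1, CCGGAAGT for ETS factors and TACGTG for the hypoxia response. Atp5k (chr5:108434350-108434649) and Uqcr11 (chr10:80406772-80407071) differed most between the cells labelled CSP and mSSC in complexes V and III, Ndufa4 (chr6:11907401-11907700) belongs to the paralog pair described further on, and Cox6a1 (chr5:115348909-115349208) gave the most FPKM of all 92 genes in every population.
Atp5k: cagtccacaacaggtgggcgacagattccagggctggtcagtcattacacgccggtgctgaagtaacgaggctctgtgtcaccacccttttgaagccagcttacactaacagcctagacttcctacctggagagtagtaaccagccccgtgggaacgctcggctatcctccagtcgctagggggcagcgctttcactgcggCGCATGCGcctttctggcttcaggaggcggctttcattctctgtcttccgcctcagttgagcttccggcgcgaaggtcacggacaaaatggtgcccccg
Cox6a1: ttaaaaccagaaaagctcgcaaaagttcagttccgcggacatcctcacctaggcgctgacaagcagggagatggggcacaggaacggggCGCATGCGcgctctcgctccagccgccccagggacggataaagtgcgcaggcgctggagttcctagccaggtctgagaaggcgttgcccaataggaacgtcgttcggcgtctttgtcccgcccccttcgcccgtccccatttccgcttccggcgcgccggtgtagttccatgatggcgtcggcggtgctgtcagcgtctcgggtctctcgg
Uqcr11: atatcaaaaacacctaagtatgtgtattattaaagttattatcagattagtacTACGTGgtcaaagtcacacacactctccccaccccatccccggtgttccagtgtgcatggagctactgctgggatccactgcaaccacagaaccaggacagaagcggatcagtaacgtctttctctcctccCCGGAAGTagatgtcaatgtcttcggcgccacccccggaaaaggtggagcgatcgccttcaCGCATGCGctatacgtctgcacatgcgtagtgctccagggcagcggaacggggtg
Ndufa4: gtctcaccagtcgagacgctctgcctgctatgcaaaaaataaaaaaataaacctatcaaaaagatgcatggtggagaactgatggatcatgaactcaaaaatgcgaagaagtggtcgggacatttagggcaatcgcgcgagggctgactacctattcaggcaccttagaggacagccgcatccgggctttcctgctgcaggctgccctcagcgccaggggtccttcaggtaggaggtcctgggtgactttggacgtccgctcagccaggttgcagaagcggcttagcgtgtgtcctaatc
The Atp5k and Cox6a1 windows each hold the NRF1 motif, the Uqcr11 window holds it with the ETS and the hypoxia response motif, and the Ndufa4 window holds none of the motifs searched, which included AAGATGGC for YY1. A promoter was matched for 76 of the 92 genes, in 82 windows. The NRF1 motif stood in 11 of the 82 windows (13.4%), against 1.87% of all 32851 windows of the same length. The YY1 motif stood in 12 (14.6%, against 2.75%), the ETS motif in 5 (6.10%, against 3.89%) and the hypoxia response motif in 1, that of Uqcr11 (1.22%, against 3.23%). The median GC content was 58% in the members' windows and 52.7% in all. In the windows shown no match overlapped another. These matches are a description of letters, not of binding.

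Cells with at least 1000 genes detected (FPKM, fragments scaled to transcript length and library size, of at least 1) carry the results: 37 of 37 mSSC, 11 of 26 CSP, 43 of 72 THY+ and 34 of 92 6C3+ cells. The median number of genes detected was 2534, 3033, 2835 and 2639 in that order. The median part of ERCC spike-ins in the FPKM of a cell was 0.00117% for mSSC, 0.000945% for CSP, 20.8% for THY+ and 18.9% for 6C3+. The median endogenous total was 906237 FPKM in mSSC, 578425 in CSP, 752613 in THY+ and 366748 in 6C3+ cells. Cells of mSSC and CSP shared 1 index plate, while THY+ and 6C3+ cells each had their own, so for those the plate and the population cannot be told apart. Transcripts of the sort antigens followed the gates only in part. Thy1 was detected in 9 of 43 THY+ cells and in 0 cells of the other populations. Enpep (6C3) was detected in 9 of 34 6C3+, 3 of 43 THY+ and 0 mSSC or CSP cells. Eng (CD105) was detected in 10 of 43 THY+ and 3 of 34 6C3+ cells, both gated as CD105+. It was detected in 8 of 37 mSSC and 0 of 11 CSP cells, and Cd200 in 8 of 37 mSSC and 9 of 11 CSP cells. For this reason mSSC and CSP are used here as labels. Whether these labels were exchanged, or transcripts do not follow the surface proteins, was not tested; exchanged labels would turn the sign of each CSP minus mSSC value and swap the reference of the other comparisons. Of 10 chondrocyte transcripts, the median cell held 10 in mSSC, 10 in CSP, 4 in THY+ and 7 in 6C3+ cells. No animal is named in the labels, so each population counts as 1 sample, no test was made, and all spreads are between cells.

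Most of the 92 genes were detected in most cells. The median member was detected in 64% of the cells kept, against 25.6% for the 7904 genes detected in at least 10% of cells, and 63 members passed 50% of cells. Complex V was the most evenly detected: each of its 15 genes was found in at least 50% of the cells of every population, with a median over its genes of 83.8% of mSSC, 90.9% of CSP, 81.4% of THY+ and 85.3% of 6C3+ cells. In complex I the median was 59.5%, 72.7%, 62.8% and 61.8% of cells in the same order. Complex II was thinner, with medians of 43.2%, 68.2%, 48.8% and 48.5%. The assembly factors were rare, and 8.11% of mSSC cells was the median over the 7 Ndufaf genes. A total of 83 members passed the filter of 10% of cells. The 9 that did not were Atp5s (6.4% of cells), Cox7a1 (3.2%), Cox8b (0.8%), Ndufaf1 (9.6%), Ndufaf5 (8% of cells), Ndufaf6 (4.8%), and Cox6a2, Cox7b2 and Cox8c, which were detected in 0 of the cells kept. Cox6a2 is the heart and muscle form and Cox8c a testis form of complex IV subunits.

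**Figure D1:**
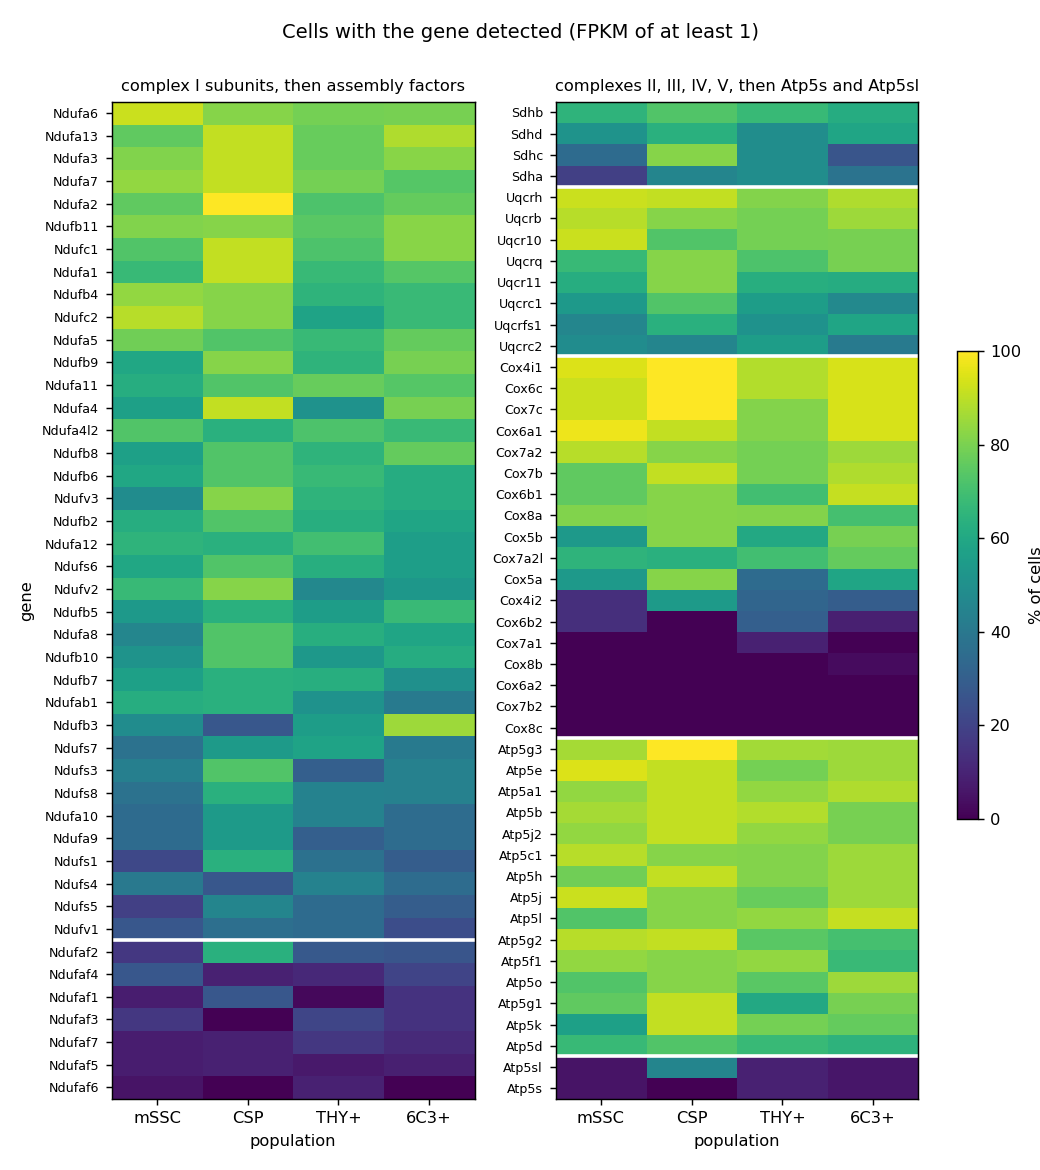
Share of cells (%, colour) in which each gene (rows, grouped by complex, with white lines between groups; 1 complex I gene is not drawn) was detected at an FPKM of at least 1 in mSSC, CSP, THY+ and 6C3+ cells (columns). Complex V is bright in every column, the Ndufaf genes and the second forms of complex IV subunits are dark, and Ndufb3 stands out among complex I genes as high in 6C3+ (29 of 34 cells) and low in CSP (3 of 11 cells).

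Summed over the 92 genes, the share of a cell's endogenous FPKM was lowest in cells labelled mSSC and overlapped widely between populations. The share is taken within a cell and over endogenous FPKM, so spike-ins do not enter its calculation. It can still vary with them between cells. Spearman's rho between the share and the spike-in part was -0.30 in mSSC, 0.59 in CSP, -0.20 in THY+ and -0.34 in 6C3+ cells. Spike-ins took at most 0.0276% of FPKM in mSSC and 0.00428% in CSP cells. In those populations rho ranks traces and cannot show whether the share varies with spike-ins. The cause was not tested. In mSSC cells the share ran from 1.71% over a median of 2.95% to 5.68%. In CSP cells it ran from 2.43% over 3.77% to 5.59%, and in 6C3+ cells from 2.02% over 3.87% to 5.603%. THY+ cells had the highest median and the widest spread, from 0.0791% over 4.30% to 9.31%. The median of each population therefore lay within the range of every other, and the medians differed by less than the range inside any population. Without the first 2 index rows (cells that share a row barcode of the library plate), where spike-ins were lower (median 7.18% against 35.5% of FPKM), the THY+ median was 3.60% over 23 cells, and in the 20 cells of those rows it was 4.82%.

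**Figure D2:**
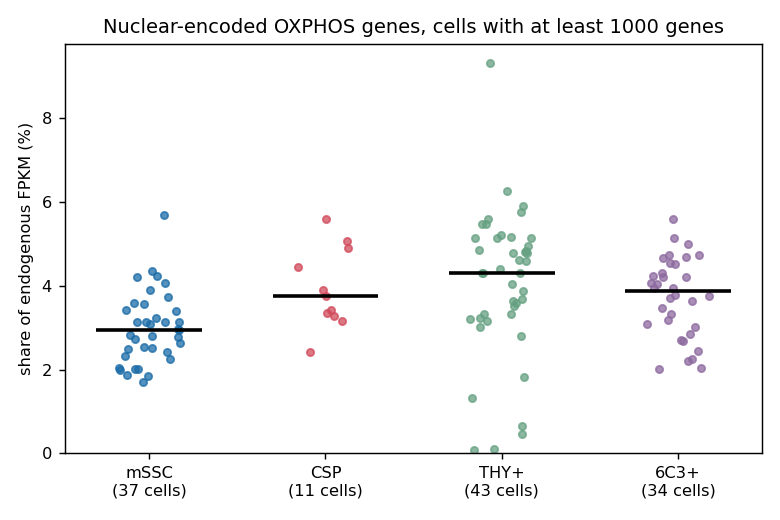
Share of endogenous FPKM (%, vertical axis) taken by the 92 genes in each cell with at least 1000 genes (points), by population, with the median as a black line. The medians are 2.95% (mSSC), 3.77% (CSP), 4.30% (THY+) and 3.87% (6C3+), and the 4 clouds overlap.

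By complex, the shares showed the same order of populations only in part. Complex I took a median of 1.09% of endogenous FPKM in mSSC, 1.40% in CSP, 1.37% in THY+ and 1.40% in 6C3+ cells. Complex IV took 0.674%, 1.02%, 1.07% and 1.03%, and complex V 0.718%, 0.976%, 1.04% and 0.889%. In these the mSSC median was the lowest. Complex III had its highest median in CSP cells, 0.710%, against 0.341% in mSSC, 0.431% in THY+ and 0.386% in 6C3+ cells. Its share ran from 0.0392% to 1.11% over 11 CSP cells and from 0% to 0.703% in mSSC cells, so the ranges overlapped. Gene by gene, as given further on, the median difference of complex III between CSP and mSSC cells was -0.21, with 2 of 8 genes higher and 1 lower. Complex II, the smallest group, was lowest in 6C3+ cells (0.0344%, against 0.0531% in mSSC, 0.0921% in CSP and 0.0671% in THY+).

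A single gene, Cox6a1, which encodes the common form of a small complex IV subunit, led the sum in every population. Its median part of the members' FPKM was 9.81% in mSSC, 12.9% in CSP, 8.35% in THY+ and 10.7% in 6C3+ cells. Its FPKM, a level per transcript length, ran from 0 over 2598 to 10597 in mSSC and from 0 over 2465 to 14019 in CSP cells. In THY+ cells it ran from 0 over 1863 to 16581, and in 6C3+ cells from 0 over 1148 to 4017. The gene in the next place was not the same in each population: Atp5e, a small ATP synthase subunit, in mSSC, Uqcrq, a small complex III subunit, in CSP, Cox6c in THY+ and Cox4i1 in 6C3+ cells. Cox4i1, the common form of subunit 4 of complex IV, was detected in 35 of 37 mSSC, 11 of 11 CSP, 38 of 43 THY+ and 32 of 34 6C3+ cells.

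The number of members detected in a cell followed the number of genes detected. The median was 53 of 92 in mSSC, 65 in CSP, 58 in THY+ and 54 in 6C3+ cells. Across cells, Spearman's rho between members and genes detected was 0.81 (37 mSSC cells), 0.89 (11 CSP cells), 0.80 (43 THY+ cells) and 0.73 (34 6C3+ cells); both counts come from the same library and depth, so this is a description. As a part of the genes detected, members made up a median of 1.95%, 1.99%, 1.75% and 1.93%. Below 1000 genes the members were nearly all missing: the median cell held 2 of them in CSP (15 cells), 3 in THY+ (29 cells) and 2 in 6C3+ (58 cells).

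Among the cells kept, 7 were unlike the others. They were 6 THY+ cells and 1 6C3+ cell, had 1031 to 1994 genes detected, and yet held only 5 to 9 of the 92 members, while the next lowest cell held 23. Spike-ins took 59.97% to 87.7% of their FPKM. In all, 9 cells kept were above 50%, and the other 2, both THY+, had at least 23 members. The differences below are also given without these 9 cells where a call or a direction depends on them.

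**Figure D3:**
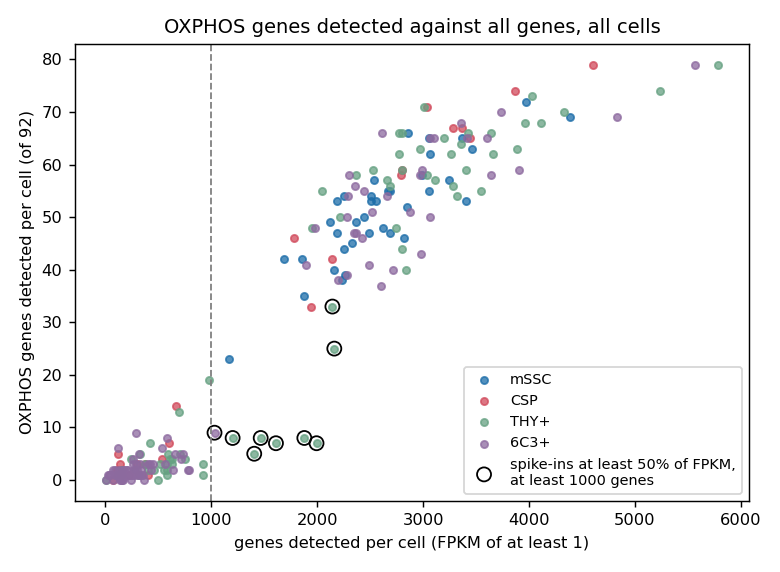
Members detected (of 92, vertical axis) against all genes detected (horizontal axis) in each cell, coloured by population; the dashed line marks 1000 genes and black rings mark cells past that line with spike-ins at 50% or more of FPKM. Cells with more genes hold more members, except for 7 ringed cells at the bottom that hold 5 to 9 members.

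The comparison of cells labelled CSP with those labelled mSSC is the only comparison within a plate, and transcripts of CD105 went against the gates of both. Cd200 was detected in 8 of 37 mSSC cells, gated as CD200+, and in 9 of 11 CSP cells, whose gate does not name CD200. Over the 92 genes, the median difference of CSP from mSSC cells was 0.37 in mean log2(FPKM + 1). It was 0.57 over the 83 members that passed the filter of 10% of cells, as all genes tested did. It was -0.01 for the 7904 genes tested and -0.19 for those in at least 50% of cells. A difference of at least 1 on this scale was reached by 35 members upwards and 7 downwards. The background was 14.7% of all genes tested upwards and 10.6% downwards, and among genes detected in at least 50% of cells, which most members are, 17.1% and 23.4%. Rescaled to the same endogenous total in every cell, the median was 0.81, with 44 members higher and 4 lower, against backgrounds of 20.1% and 8.65%; all 35 were higher on both scales. The medians were highest in complexes I, II and V: the median was 0.83 in complex I (17 of 38 higher, 3 lower), 1.53 in complex II (3 of 4 higher, 0 lower) and 0.86 in complex V (6 of 15 higher, 1 lower). In complex III it was -0.21, and 0.13 rescaled (2 of 8 higher, 1 lower as deposited). In complex IV it was 0.00 (4 of 18 higher, 1 lower), and 0.36 rescaled (6 higher, 1 lower). As deposited, 8 of the 18 complex IV genes lay above 0 and 5 below. Genes that were not detected in the cells kept, Cox6a2, Cox7b2 and Cox8c, count in this median. Of 9 osteoblast transcripts, 5 were higher and 1 lower by at least 1 in CSP cells, and their part in the result was not tested. Only 11 CSP cells carry the comparison, and the direction does not hold when low cells are kept: over all 26 CSP cells the median was -1.99, and as the difference of the log2 of the mean it was -0.12. The medians of complexes I, II and V were -0.056, 0.50 and -0.17 as the log2 of the mean. Among cells with 2000 to 3000 genes, 3 in CSP, the median of all members was -0.039, that of complex II 0.27, of complex III -1.52 and of complex V -0.11, and there Uqcr11 (-2.22) and Sdhd (-1.54) were lower in CSP. Over all CSP cells Ndufa1 (-1.58), Atp5k (-1.18), Uqcr11 (-1.37), Sdhc (-0.18) and Cox5a (-1.08) turned sign too.

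In complex I, Ndufa1, a membrane subunit needed for assembly of the complex, differed most. Its FPKM ran from 0 over a median of 57.4 to 3909 in mSSC and from 0 over 614 to 4237 in CSP cells, a difference of 3.48 (4.04 rescaled). Ndufs5 differed by 3.07 (3.34 rescaled) and was found in 5 of 11 cells of CSP against 7 of 37 of mSSC. The ranges of both genes overlap between the populations, and for Ndufs5 the median FPKM was 0 in mSSC and 0.320 in CSP cells. Ndufs1, the largest subunit of the electron-carrying arm, was 1.98 higher and was found in 7 of 11 cells of CSP against 8 of 37 of mSSC. Ndufv1, the core subunit that binds NADH, stayed within 1, with a difference of -0.24 (4 of 11 against 10 of 37 cells). Lower in CSP were Ndufb3 (-2.09, -2.01 rescaled), found in 3 of 11 cells of CSP against 18 of 37 of mSSC, and Ndufa4l2 (-2.18, -1.72 rescaled). Of the assembly factors, Ndufaf2 was higher by 3.12 (7 of 11 CSP against 6 of 37 mSSC cells), while Ndufaf3 (-1.07) was lower, and was listed at 0 in all 11 CSP cells.

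Complex II was higher in CSP cells in 3 of its 4 genes. Sdhc, a membrane anchor, was found in 9 of 11 cells of CSP, 13 of 37 of mSSC, and ran from 0 over 9.94 to 529.9 FPKM in CSP and from 0 over 0 to 545 in mSSC, a difference of 2.48. Sdha, the flavoprotein that oxidises succinate, differed by 1.82 (5 of 11 against 7 of 37 cells). Sdhd, the other anchor, differed by 1.23, and Sdhb, the iron-sulphur subunit, by -0.05. For Sdhc and Sdha the highest values were close in both populations (820 FPKM in CSP and 823 in mSSC for Sdha), while the part of cells with the gene was higher in CSP.

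In complex III, Uqcr11 and Uqcrq, both small membrane subunits, were 2.93 and 2.48 higher in CSP cells. Uqcr11 ran from 0 over 626 to 2438 FPKM in CSP and from 0 over 28.6 to 1040 in mSSC cells. The larger subunits did not follow: Uqcrc2, a core protein, differed by -0.39, and Uqcrfs1, the Rieske iron-sulphur protein that passes electrons on, by -0.05. Uqcr10 differed by -1.06 in mean log2, while its median FPKM was 591 in CSP and 437.5 in mSSC cells; it was found in 8 of 11 cells of CSP against 34 of 37 of mSSC.

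In complex IV, the subunits Cox5a (2.05) and Cox5b (1.75), which belong to the core of the nuclear part, were higher in CSP cells. Cox5a ran from 0 over 72.5 to 714.5 FPKM in CSP and from 0 over 4.56 to 636 in mSSC cells. The abundant Cox4i1 (-0.22) and Cox6a1 (-0.09) were within 1, and Cox4i2 was 2.39 higher. In complex V, Atp5k, a small subunit at the contact between ATP synthase dimers, differed by 3.25 (3.75 rescaled). It ran from 0 over 392 to 1108 FPKM in CSP and from 0 over 19.5 to 1884 in mSSC cells. The catalytic subunit Atp5b was 1.5 higher (2.07 rescaled), the other main subunit of the catalytic head, Atp5a1, 0.87 higher (1.42 rescaled), and Atp5c1, the central stalk, differed by -1.15 (-0.81 rescaled). Without CSP cell 12, which held 46 members, the count of lower members was 4 in place of 7. Leaving out any of 5 single cells moved the median of all members by over 1.5 times, to 0.12 without CSP cell 20 and to 0.75 without CSP cell 25 at the extremes.

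**Figure D4:**
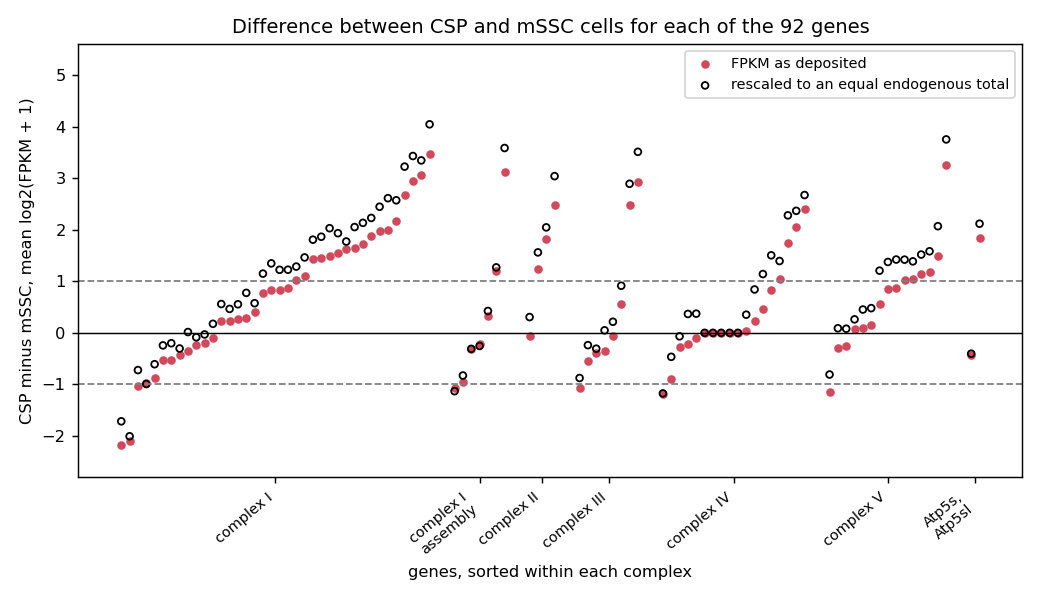
Difference between CSP and mSSC cells in mean log2(FPKM + 1) (vertical axis) for each of the 92 genes, sorted within its complex (horizontal axis), from FPKM as deposited (filled) and rescaled to an equal endogenous total (open); dashed lines mark -1 and 1. The highest deposited value is Ndufa1 at 3.48 and the lowest are Ndufa4l2 (-2.18) and Ndufb3 (-2.09).

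The counts of members that differed between THY+ and mSSC cells were near those of all genes tested, while single genes differed widely. The median over the 92 genes was 0.23 (0.29 rescaled), and 0.27 over the 83 members that passed the filter of 10% of cells, against 0.12 for all genes tested. For genes in at least 50% of cells it was -0.36 (-0.15 rescaled). A difference of at least 1 was reached by 13 members upwards and 7 downwards. The background was 10.9% and 10.5% of all genes (14% and 29.8% of genes in at least 50% of cells). Rescaled, it was 15 and 7 members, beside 14.5% and 9.29% (19.1% and 25.6% of genes in at least 50% of cells). By complex the medians were 0.28 in complex I, 0.84 in complex II, 0.04 in complex III, 0.00 in complex IV and 0.36 in complex V. The group value depended on which cells were counted: it was 0.95 with 43 members higher and 1 lower without the cells above 50% spike-ins, and -0.63 with 3 higher and 35 lower without the first 2 index rows. Of 11 pericyte and smooth muscle transcripts 8 were higher by at least 1 in THY+ cells, and all 10 chondrocyte transcripts were lower; their part in the members' values was not tested. Leaving out any of 6 single THY+ cells (2, 10, 12, 65, 66 and 69), with spike-ins at 59.97% to 87.7%, brought the count of lower members from 7 to 4. The median of all members moved by over 1.5 times without any of 3 single cells, and was lowest, at 0.14, without THY+ cell 31.

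Atp5k had the highest difference, 3.10 (3.24 rescaled). In THY+ cells it ran from 0 over 609 to 11695 FPKM and was detected in 34 of 43, against 21 of 37 mSSC cells. Sdha was 1.51 higher (21 of 43 cells), Ndufs7, which carries an iron-sulphur cluster of complex I, 1.46 higher (25 of 43 against 14 of 37 cells), and Ndufb8, a membrane subunit, 1.44 higher. Ndufc2, another membrane subunit of complex I, was the lowest, at -3.11 (-3.12 rescaled). It ran from 0 over 312 to 5786 FPKM in mSSC and from 0 over 30.6 to 3125 in THY+ cells, so the ranges overlapped while the medians were far apart. Also lower were Atp5e (-1.59), Uqcr10 (-1.30), Cox6a1 (-1.19) and Atp5g1 (-1.01). Of these, Cox6a1 (0.54) and Uqcr10 (0.17) turned to the other sign without the cells above 50% spike-ins.

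6C3+ cells gave opposite answers on the deposited and on the rescaled values. As deposited, the median difference from mSSC cells was -0.37, with 4 members higher and 23 lower by at least 1, beside a background of 4.9% and 14.8% (6.27% and 44.4% of genes in at least 50% of cells). Rescaled, it was 0.22, with 24 higher and 5 lower, beside 16.1% and 6.58% (22.9% and 14.6% of genes in at least 50% of cells). For all genes tested the median was -0.13 as deposited and 0.25 rescaled, so the median over all genes turned sign with the scale too. Over the 83 members that passed the same filter of 10% of cells, the deposited median was -0.48. For genes in at least 50% of cells it was -0.85 as deposited, lower than that of the members, and 0.15 rescaled. On both scales 4 members were higher and 5 lower. The higher 4 were Atp5k (1.29, 2.54 rescaled), Ndufb3 (1.26, 2.66), Cox5b (1.09, 2.25) and Ndufb8 (1.07, 2.12). As the log2 of mean FPKM all 4 turned sign, to -0.25, -0.89, -0.13 and -0.41, and they did so over all cells as well. The lower 5 included Ndufc2 (-3.60, -2.51), Ndufa7 (-2.42, -1.35) and Uqcrc2 (-1.92, -1.40), with Ndufv2 (-2.11, -1.30), which binds an iron-sulphur cluster at the NADH end, and Atp5g2 (-2.07, -1.11). Ndufc2 was detected in 23 of 34 and Ndufb3 in 29 of 34 6C3+ cells. Leaving out 1 of 3 single 6C3+ cells (13, 22 and 68) or 1 of 5 single mSSC cells (3, 8, 14, 18 and 37) brought the count of higher members from 4 to 2.

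Within complexes, the median difference of 6C3+ from mSSC cells as deposited was -0.40 in complex I, -0.59 in complex II, -1.44 in complex III, -0.07 in complex IV and -0.64 in complex V. Rescaled, it was 0.35, -0.03, -0.17, 0.24 and 0.53 in the same order, so complexes I, IV and V turned sign. Ndufb3 ran from 0 over 36.6 to 709 FPKM in 6C3+ cells and from 0 over 0 to 1322 in mSSC cells. Ndufc2 ran from 0 over 21.03 to 292 in 6C3+ cells, below the median of 312 in mSSC cells. Uqcrc2 was listed at 0 in the median cell of both populations, and was detected in 14 of 34 and 18 of 37 cells. The comparisons of CSP, THY+ and 6C3+ with mSSC share the same 37 mSSC cells, so Atp5k as higher and Ndufc2 as lower in each of them are not independent results: the CSP values were 3.25 and -1.02.

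THY+ and 6C3+ cells lay on different plates. Their median spike-in shares were close, but the upper quartile reached 36.9% for THY+ against 23.1% for 6C3+ cells, and 8 THY+ cells and 1 6C3+ cell were above 50%. As deposited, the members' median difference of 6C3+ from THY+ cells was -0.63 (all genes -0.26, genes in at least 50% of cells -0.51). Of the members, 1 was higher and 27 lower. The backgrounds were 2.05% and 11.3% of all genes (4.65% and 25.3% of genes in at least 50% of cells). Rescaled, the members' median was 0.04, with 16 higher and 8 lower beside 9.49% and 5.68%. For genes in at least 50% of cells the backgrounds were 22.6% and 6.41%, with a median of 0.40. The gene that was higher on both scales was Cox5a (1.12, 1.89 rescaled), detected in 20 of 34 6C3+ and 15 of 43 THY+ cells; as the log2 of mean FPKM it was -0.90, and over all cells -0.11. Of the 8 lower on both scales, Uqcrc2 was the lowest as deposited (-2.49, -2.04 rescaled), with 24 of 43 THY+ cells, and Cox8a, the common form of the smallest complex IV subunit, followed (-1.92, -1.18). Without the cells above 50% spike-ins the deposited count of higher members was 0, so Cox5a did not reach 1 there, and the count of lower members was 60. Without the first 2 index rows the count of lower members was 8, with 19 higher and a median of 0.045. Leaving out 1 of 7 single 6C3+ cells (13, 27, 36, 51, 54, 68 and 77) took the count of higher members from 1 to 0, and without THY+ cell 27 it was 2.

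Against CSP cells, the medians of the group were lower in both other plates. Genes in at least 50% of cells had medians of -0.28 in THY+ and -0.82 in 6C3+ cells (-0.49 and -0.067 rescaled). For THY+ cells the members' median difference was -0.29 (-0.64 rescaled), with 6 members higher and 26 lower. The backgrounds were 15.5% and 17.6% (19.8% and 30.3% of genes in at least 50% of cells). The THY+ median turned to 0.49, with 32 higher and 13 lower, without the cells above 50% spike-ins, and leaving out CSP cell 20 alone, which held 79 members, gave 14 higher in place of 6 and a median of -0.0079. Any of 4 single cells moved this median by over 1.5 times, and the lowest, -0.64, was that without CSP cell 25. For 6C3+ cells the median difference was -1.04 (-0.34 rescaled), with 2 higher and 48 lower beside 8.3% and 22.8% (11.4% and 44.2% of genes in at least 50% of cells); the 2 were Ndufa4l2 and Ndufb3, and 35 of the 48 were lower on both scales. Leaving out any of 23 single cells gave 1 higher in place of 2. Ranked over the 4 populations, 44 of the 83 members that passed the filter had their highest mean level in CSP cells (47 rescaled), and 48 had their lowest in 6C3+ cells (20 rescaled, against 34 with their lowest in mSSC cells). These are 53% of the members highest in CSP (56.6% rescaled), against 33% of all genes tested on both scales and 34% (38% rescaled) of genes in at least 50% of cells. For the lowest level in 6C3+ cells it was 57.8% of the members, against 32.1% of all genes tested and 48.8% of genes in at least 50% of cells; rescaled, it was 24.1%, against 14.9% and 12.8%.

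Among the subunits with a second form, Ndufa4 and Ndufa4l2 had their medians in a different order in CSP cells. Ndufa4, named for complex I and placed in complex IV by later work, is the common form, and Ndufa4l2 is known as a target of the hypoxia response that lowers respiration. In mSSC cells Ndufa4 ran from 0 over 26.9 to 1658 FPKM and Ndufa4l2 from 0 over 576 to 5911. In CSP cells the order was the other way, with Ndufa4 from 0 over 258.98 to 835 and Ndufa4l2 from 0 over 68.9 to 1871. THY+ cells were like mSSC cells, with medians of 24.7 for Ndufa4 and 436 for Ndufa4l2, and 6C3+ cells had medians of 32.99 and 111.7. Cell by cell, Ndufa4l2 was above Ndufa4 in 22 of 37 mSSC, 4 of 11 CSP, 29 of 43 THY+ and 19 of 34 6C3+ cells. The ranges of both genes overlap in all populations. Ndufa4l2 (chr10:127514967-127517154) overlaps exons of Shmt2 on the other strand, and the strand use of the counting is not given in the sources used here, so reads of the pair cannot be told apart.

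Cox4i2, the second form of subunit 4 of complex IV, known from lung and oxygen-sensing cells, was detected in fewer cells than Cox4i1 everywhere. It was found in 5 of 37 mSSC (13.5%, exact 95% interval 4.54% to 28.8%), 6 of 11 CSP (54.5%, 23.4% to 83.3%), 14 of 43 THY+ (32.6%, 19.1% to 48.5%) and 10 of 34 6C3+ cells (29.4%, 15.1% to 47.5%). These intervals cover counting error between cells only. In THY+ cells Cox4i2 went with transcripts of pericytes and smooth muscle: 10 of the 13 cells with at least 6 of the 11 listed transcripts (they held 7 to 10) had it, and 4 of the 30 others (at most 4 transcripts). In the other populations this could not be examined, because only 1 mSSC, 0 CSP and 1 6C3+ cell held at least 6 of the transcripts. The mSSC and the 6C3+ cell each had Cox4i2, as did 4 of 36 mSSC and 9 of 33 6C3+ cells with fewer. The CSP cells with Cox4i2 held only 1 or 2 of the 11. Of the 10 6C3+ cells with the gene 9 held fewer than 6 (median 1.5 over the 10), and so did 4 of the 5 mSSC cells. Cox6b2, the testis form of subunit 6b, was found in 7 of the same 13 THY+ cells and in 6 of the 30 others. Cox7a1, the muscle form of subunit 7a, was detected in 4 THY+ cells alone among the cells kept, each with 8 to 10 pericyte transcripts. The 13 THY+ cells also had a higher share of the 92 genes, a median of 4.95% (3.70% to 9.31%) against 3.62% (0.0791% to 6.26%) in the 30 others, with 3193 against 2799.5 genes detected. The 8 THY+ cells above 50% spike-ins were all among the 30; without them the others had a median of 4.51% (3.02% to 6.26%) over 22 cells, with 3071.5 genes detected. The part of gene number in this was not tested.

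**Figure D5:**
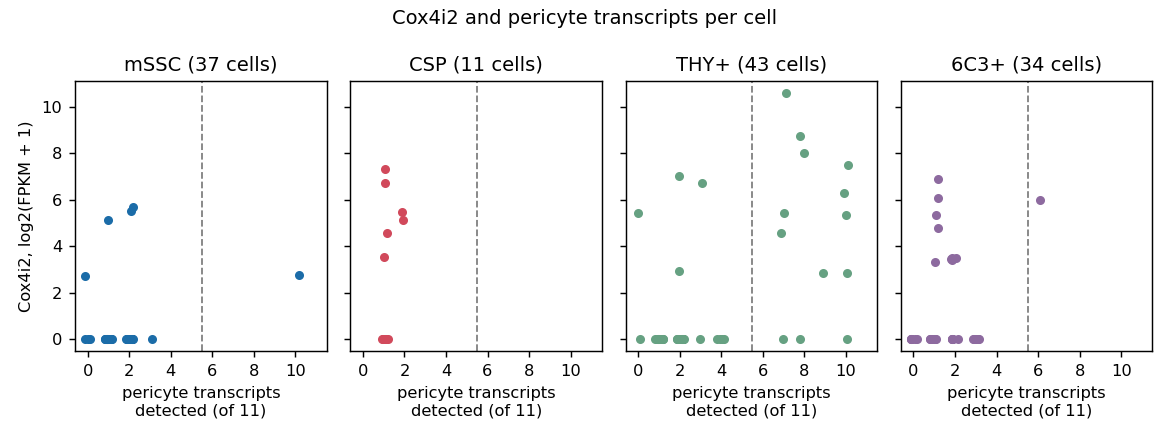
Cox4i2 in log2(FPKM + 1) (vertical axis) against the number of 11 pericyte and smooth muscle transcripts detected (horizontal axis, points spread sideways) in each cell, 1 panel per population; the dashed line stands between 5 and 6 transcripts. In THY+ cells 10 of 13 cells to the right hold Cox4i2 and 4 of 30 to the left; all 6 CSP cells with the gene lie at 1 or 2 transcripts.

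For the other paralogs, the common form was detected in more cells. Cox6b2 was detected in 5 mSSC, 13 THY+ and 3 6C3+ cells and in 0 of 11 CSP cells, which allows a share of up to 28.5% by the exact interval, while Cox6b1 was found in 28 mSSC, 9 CSP, 30 THY+ and 31 6C3+ cells. Cox8b, the muscle form, was detected in 1 6C3+ cell, against 24 for Cox8a. Cox7a2 was found in 33 mSSC, 9 CSP, 34 THY+ and 29 6C3+ cells, and Cox7a2l, a relative that helps join complexes III and IV, in 24, 7, 30 and 26. Cox7b was found in 28 mSSC, 10 CSP, 34 THY+ and 30 6C3+ cells. The genes Atp5g1, Atp5g2 and Atp5g3 encode the same mature ring subunit of ATP synthase. Their median FPKM was 96.8, 249.1 and 219.5 in mSSC and 111.2, 276.6 and 259.4 in CSP cells, so that Atp5g1 was the lowest in both. It was also the lowest in THY+ (46.6, 137.8 and 127.8) and in 6C3+ cells (40.05, 68.1 and 230.96 FPKM).

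Lists of genes around the chain differed among themselves. Of 18 TCA cycle and pyruvate dehydrogenase genes, 9 were higher by at least 1 in CSP than in mSSC cells and 0 were lower, beside 14.7% and 10.6% of all genes tested, with a median of 0.94 (1.18 rescaled, but -0.42 over all cells and -0.13 as the log2 of mean FPKM). The highest were Cs, citrate synthase (2.49), and Fh1, fumarase (2.24). In THY+ cells the median was 0.56 (3 higher, 1 lower, beside 10.9% and 10.5%; Suclg1 2.51), and -0.089 as the log2 of the mean. In 6C3+ cells it was 0.21 (1 higher, 0 lower, beside 4.9% and 14.8%; Dld 1.52), and rescaled 0.75, with 8 higher and 0 lower beside 16.1% and 6.58%. Of 10 electron and ADP/ATP carrier genes, 2 were higher in CSP cells, beside 14.7% of all genes tested. They were Slc25a5, an ADP/ATP carrier (2.60), and Cyc1, cytochrome c1, a core subunit of complex III that the name rule did not take in (1.34). Of 32 assembly factors outside the name rule, 7 were higher and 1, Cox16 (-1.43), lower in CSP cells, beside 14.7% and 10.6%. None of the 12 regulators of mitochondrial biogenesis reached 1 in either direction in the 3 comparisons with mSSC as deposited; the highest in CSP cells was Gabpa, an ETS-family factor, at 0.97.

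Of 15 glycolysis genes, 5 were higher and 0 lower in CSP than in mSSC cells, beside 14.7% and 10.6% of all genes tested. Among genes in at least 50% of cells it was 17.1% and 23.4%. The median of the glycolysis genes was 0.79 (0.85 rescaled, but -2.24 over all cells and -0.072 as the log2 of the mean). In THY+ cells 1 was higher and 8 lower than in mSSC cells (median -1.20), beside 10.5% of all genes tested and 29.8% of genes in at least 50% of cells that were lower. Rescaled, 2 were higher and 8 lower (median -1.10), beside 9.29% of all genes tested and 25.6% of genes in at least 50% of cells that were lower. In 6C3+ cells 0 were higher and 10 lower (median -1.79), beside 14.8% and 44.4% lower. Rescaled, 1 was higher and 6 were lower (median -0.85), beside 6.58% and 14.6% lower. The members' medians in these comparisons, as deposited, were 0.23 and -0.37. Eno1, the common enolase, was the lowest, at -4.26 in THY+ and -3.43 in 6C3+ cells. All 10 chondrocyte transcripts were lower by at least 1 in both comparisons, and their part in the glycolysis values was not tested. Gapdh, on the glycolytic route but listed here as a housekeeping gene, was lower too, at -2.11 and -2.50, while it differed by 0.29 between CSP and mSSC cells.

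By position, 91 of the 92 genes were matched in GENCODE M21 on GRCm38, on 19 chromosomes, with 3 on the X chromosome, Ndufa1 (chrX:37187588-37191163, minus strand) among them. Exons of 32 overlap another gene's exons, 28 of them on the opposite strand. Named pseudogenes, meaning a member's name followed by -ps, stand in the annotation for 5 members, Atp5c1, Atp5k, Atp5l, Ndufab1 and Uqcrh. Atp5k (chr5:108433244-108434448, minus strand) is among them, so its values, the highest deposited differences of THY+ and 6C3+ from mSSC cells, are uncertain as far as reads could be split between copies. Of the other genes with large differences, Ndufc2 (chr7:97400003-97407802), Ndufb3 (chr1:58586384-58595964), Uqcr11 (chr10:80402997-80406830) and Sdhc (chr1:171127165-171150603), overlap no other gene's exons and have no named pseudogene in this annotation. Copies under other names were not searched for any member. Exons of Uqcrc2, Cox5a, Ndufaf2, Ndufaf3 and Ndufs1 overlap those of a gene on the opposite strand, and exons of Ndufb8 those of a gene on the same strand. Their values are uncertain as far as reads of such pairs could not be told apart.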

How the data were processed

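Values were FPKM deposited by the authors in 1 table for 24388 genes and 92 ERCC spike-ins in single cells of 4 populations. Per the labels' protocols, sorted cells were captured on the Fluidigm C1 system, and cDNA and libraries were made with SMARTer and Nextera XT kits. The submitters' processing notes name SAMtools and mm10; the aligner, the program that made the FPKM, its strand setting and the annotation were not given in the sources used here. Such values keep no read number, so depth is unknown, and a gene listed at 0 may be present in the cell.

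Python 3.11.15 with numpy 2.4.6, pandas 2.3.3, scipy 1.17.1 and matplotlib 3.10.9 was used. Columns were matched to cells by index names (0 unmatched, 0 identical columns). Levels are means over cells of log2(FPKM + 1), where the pseudocount of 1 understates differences of low genes, as deposited and after rescaling endogenous FPKM to 1000000 a cell. Members count as higher or lower at a difference of at least 1, beside the percent of all genes detected in at least 10% of cells that passed it. Unless stated, counts and medians of members are over all 92, of which 83 were detected in at least 10% of cells. For NRF1 the 8-letter core was taken after a longer form had been searched. The calculation was tested on simulated data. Each population is 1 sample, so no p-value is given, and replicate numbers only name cells. Named genes are listed core subunits, all paralogs, the 2 highest and 2 lowest members per complex and comparison among those in at least 10% of cells, and the same from each other list; names beyond these (a gene in a comparison that did not pick it, undetected members, and genes of a count of 5 or fewer) were added once the values were known. Of the members, 1 is counted in every sum and is not reported by name here. The alternatives were other cells, scalings, pseudocounts, summaries and member sets. The members and lists were chosen with earlier results of these data known. Of 8 listed erythroid genes 7 were in the table. The erythroid, myeloid, endothelial, osteoclast and adipocyte lists had a median of 0 or 1 transcripts in each population, as did skeletal muscle. The osteoblast list (9 genes) had medians of 1 in mSSC, 2 in CSP, 1 in THY+ and 1 in 6C3+ cells.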

Additional observations from a re-analysis of the deposited data

How the results depend on the processing

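Each value is the median difference or the count of members at least 1 higher or lower, unless a gene or list is named. It is given where its sign turned, a count differed by over 1.5 times, or a value of all members lay over 1 SD between cells away. The cause was not tested. Counts were not made with rescaling over all cells or as the log2 of mean FPKM. Medians of complexes and lists were followed only in the comparisons with mSSC. Single genes were not followed in THY+ minus CSP and 6C3+ minus CSP. Without the first 2 index rows, THY+ minus mSSC gave median -0.63, 3 higher, 35 lower, complex I -0.79, complex II -0.27, complex III -0.81, complex V -1.23. THY+ minus CSP gave 3 higher, 58 lower. 6C3+ minus CSP gave 1 higher. 6C3+ minus THY+ gave median 0.045, 19 higher, 8 lower, Atp5a1 0.28, Atp5g2 0.19, Sdhb 0.35. With rescaling, for CSP minus mSSC this gave 4 lower, complex III 0.13. For 6C3+ minus mSSC this gave median 0.22, 24 higher, 5 lower, complex I 0.35, complex IV 0.24, complex V 0.53, Cox4i1 0.23. For 6C3+ minus CSP this gave 4 higher. For 6C3+ minus THY+ this gave median 0.038, 16 higher, 8 lower. With rescaling over all cells, in CSP minus mSSC it was median -1.78, complex I -1.76, complex II -0.79, complex V -2.64, TCA cycle and pyruvate dehydrogenase -0.33, glycolysis -1.89, Atp5b -2.38, Atp5g1 -2.14, Atp5k -1.01, Cox5a -1.02, Cox5b -0.99, Cox6b1 -2.50, Ndufa1 -1.35, Ndufa4 -0.57, Sdhd -1.65, Uqcr11 -1.15, Uqcrq -1.98. In THY+ minus mSSC it was median -1.35, complex I -1.36, complex II -0.67, complex III -1.54, complex V -2.28, TCA cycle and pyruvate dehydrogenase -0.12, Atp5l -1.11, Cox6c -2.02, Ndufb8 -0.78, Ndufs7 -0.038. In 6C3+ minus mSSC it was median -2.41, TCA cycle and pyruvate dehydrogenase -0.65, Atp5k -1.46, Cox5b -1.60, Ndufb3 -1.22, Ndufb8 -1.85. In THY+ minus CSP it was median 0.38. Over all cells, members detected per cell gave 6 in CSP, 29 in THY+, 3 in 6C3+. Share gave 2.22% in 6C3+. CSP minus mSSC gave median -1.99, 0 higher, 70 lower, complex I -1.85, complex II -0.96, complex V -2.92, TCA cycle and pyruvate dehydrogenase -0.42, glycolysis -2.24, Atp5b -2.74, Atp5g1 -2.42, Atp5k -1.18, Cox5a -1.08, Cox5b -1.34, Cox6b1 -2.86, Ndufa1 -1.58, Ndufa4 -0.92, Sdhc -0.18, Sdhd -1.73, Uqcr11 -1.37, Uqcrq -2.10. THY+ minus mSSC gave median -1.49, 0 higher, 59 lower, complex I -1.45, complex II -0.79, complex III -1.66, complex V -2.31, TCA cycle and pyruvate dehydrogenase -0.24, Atp5l -1.19, Cox6c -2.22, Ndufb8 -0.81, Ndufs7 -0.22. 6C3+ minus mSSC gave median -2.85, 0 higher, 74 lower, TCA cycle and pyruvate dehydrogenase -0.91, Atp5k -2.10, Cox5b -1.99, Ndufb3 -1.83, Ndufb8 -2.24. THY+ minus CSP gave median 0.58, 27 higher, 0 lower. 6C3+ minus CSP gave 1 higher, 28 lower. 6C3+ minus THY+ gave 0 higher, 63 lower, Cox5a -0.11. As the log2 of mean FPKM, for CSP minus mSSC this gave median -0.12, complex I -0.056, complex V -0.17, TCA cycle and pyruvate dehydrogenase -0.13, glycolysis -0.072, Atp5g1 -0.17, Atp5sl -0.38, Uqcr10 0.14. For THY+ minus mSSC this gave TCA cycle and pyruvate dehydrogenase -0.089, Cox6a1 0.36, Uqcr10 0.080. For 6C3+ minus mSSC this gave TCA cycle and pyruvate dehydrogenase -0.71, Atp5k -0.25, Cox5b -0.13, Ndufb3 -0.89, Ndufb8 -0.41. For THY+ minus CSP this gave median 0.54. For 6C3+ minus THY+ this gave Cox5a -0.90. Without cells above 50% spike-ins, in THY+ minus mSSC it was 43 higher, 1 lower, Cox6a1 0.54, Uqcr10 0.17. In THY+ minus CSP it was median 0.49, 32 higher, 13 lower. In 6C3+ minus THY+ it was 0 higher, 60 lower. With at least 2000 genes, CSP minus mSSC gave complex III 0.27, Uqcr10 0.39. THY+ minus mSSC gave 36 higher, 1 lower. THY+ minus CSP gave 12 higher. 6C3+ minus CSP gave 1 higher. 6C3+ minus THY+ gave 2 higher, 51 lower. With 2000 to 3000 genes, for CSP minus mSSC this gave median -0.039, 27 lower, complex V -0.11, glycolysis -0.59, Atp5sl -0.36, Sdhd -1.54, Uqcr11 -2.22. For THY+ minus mSSC this gave 25 higher, 11 lower. For THY+ minus CSP this gave median 0.15, 33 higher. For 6C3+ minus CSP this gave 11 higher. For 6C3+ minus THY+ this gave 3 higher, 47 lower. With a pseudocount of 0.1, in CSP minus mSSC it was complex III 0.12. In THY+ minus mSSC it was 20 higher, 13 lower. In 6C3+ minus mSSC it was 12 higher. In 6C3+ minus CSP it was 4 higher. In 6C3+ minus THY+ it was 5 higher. With a pseudocount of 10, CSP minus mSSC gave 19 higher, 2 lower. THY+ minus mSSC gave complex III -0.044, 4 higher, 2 lower. 6C3+ minus mSSC gave 0 higher. THY+ minus CSP gave 3 higher, 12 lower. 6C3+ minus CSP gave 1 higher. 6C3+ minus THY+ gave 0 higher. Of the medians of complexes and lists that did not turn sign, 10 lay over 1 SD lower over all cells, and 10 with rescaling over all cells. The others so far away were CSP minus mSSC in complex II, at 0.27 with 2000 to 3000 genes and 0.50 as the log2 of mean FPKM, and in complex III, at -1.52 with 2000 to 3000 genes, and 6C3+ minus mSSC in complex III, at -0.17 with rescaling.

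Leaving out each cell in turn, a choice made after seeing the data like that on spike-ins, gave 4 to 10 lower for CSP minus mSSC, 4 to 10 lower for THY+ minus mSSC, 2 to 6 higher for 6C3+ minus mSSC, 5 to 14 higher for THY+ minus CSP, 1 to 2 higher for 6C3+ minus CSP, 0 to 2 higher for 6C3+ minus THY+; the 6 median differences kept their sign, at 0.12 to 0.75 for CSP minus mSSC, 0.14 to 0.32 for THY+ minus mSSC, -0.47 to -0.28 for 6C3+ minus mSSC, -0.64 to -0.0079 for THY+ minus CSP, -1.35 to -0.72 for 6C3+ minus CSP and -0.71 to -0.56 for 6C3+ minus THY+. Single genes were followed only for the picked named genes, in the comparisons with mSSC and in 6C3+ minus THY+. Of their 72 differences of at least 1, 39 kept their side of 1 over all cells (21 turned sign), 39 with rescaling over all cells (19 turned), 43 as the log2 of mean FPKM (10 turned) and 43 with a pseudocount of 10 (0 turned). It was 53 with rescaling (1 turned), 54 with 2000 to 3000 genes (3 turned), 57 without the first 2 index rows (3 turned), 62 with at least 2000 genes (1 turned), 64 without cells above 50% spike-ins (2 turned) and 72 with a pseudocount of 0.1 (0 turned). The share was lowest in mSSC cells except over all cells. No paired analysis was possible because replicate numbers only name single cells and each population is 1 sample. Depth is unknown, 11 CSP cells limit every comparison with CSP, and plate and population cannot be told apart for THY+ and 6C3+.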
